A study of Mus musculus with 7 samples.

Results

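The genes described here are the Wnt ligands, their receptors and the proteins that modulate the signal, followed in 7 mouse libraries: 3 PDGF-B-labelled gliomas, 3 EGFRvIII-labelled gliomas and 1 culture of neural progenitors. Members were chosen by symbol: every Wnt, Fzd, Sfrp or Dkk gene with a number, plus Frzb, Wif1, Porcn, Axin1, Axin2, Lrp5, Lrp6, Lef1, Tcf7, Tcf7l1, Rnf43, Znrf3, Nkd1, Apcdd1 and Notum. The annotation holds 52 such symbols, of which 35 were measured among the 17422 genes of the series. The other 17 are not analysed here: Wnt1, Wnt3a, Wnt4, Wnt6, Wnt8a, Wnt8b, Wnt9b, Wnt10a, Wnt10b, Wnt11, Wnt16, Dkk1, Dkk4, Sfrp5, Wif1, Notum and Lef1. By role, 9 of 20 ligand genes (Porcn included), 12 of 12 receptors, 6 of 11 secreted antagonists, 6 of 6 regulators and 2 of 3 transcription factors were measured. Of the genes that mark the group, Axin2 stood between 10.8 and 35.9 CPM (reads scaled by library size), whereas Wnt3 and Wnt9a did not exceed 1.34 CPM in any library.

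The PDGF-B-labelled gliomas were grown from wild-type BALB/c neural precursors of embryonic day 14 that a retrovirus had given PDGF-B, which activates platelet-derived growth factor receptors, and the red fluorescent protein DsRed. Per the labels, the EGFRvIII-labelled gliomas came from Ink/Arf -/- precursors of the same age given EGFRvIII, a truncated and constantly active epidermal growth factor receptor, and DsRed. In both, 20000 cells were grafted into the brain of adult BALB/c mice 10 days after transduction, and DsRed-positive cells were sorted from the tumour once neurological signs appeared. The culture held wild-type embryonic day 14 progenitors transduced with PDGF-B and sorted for DsRed; the precursors were grown on Matrigel with B27, human bFGF and EGF (10 ng/ml), and only this library was never grafted. Oncogene and Ink/Arf genotype differ together between the glioma groups and cannot be told apart, and all 7 libraries derive from DsRed-transduced cells of a single strain.

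The driver genes ran against the labels of all 6 gliomas, so each group is named by its label only. Egfr stood at 4952, 5109 and 3594 CPM in the PDGF-B-labelled gliomas, 41.2, 26.9 and 25.6 CPM in the EGFRvIII-labelled gliomas and 282 CPM in the culture. Pdgfb had 1.95, 2.97 and 4.88 CPM in the PDGF-B-labelled gliomas, 386, 284 and 277 CPM in the EGFRvIII-labelled ones and 245 CPM in the culture. Cdkn2a, the gene of the Ink/Arf locus, was at 3.52, 2.94 and 4.99 CPM in the PDGF-B-labelled gliomas, 22.7, 26.1 and 11.1 CPM in the EGFRvIII-labelled gliomas, where the labels give the locus as deleted, and 10.7 CPM in the culture. The exons that the deletion removes are not stated in the sources used here. Every direction below between the glioma groups, and every comparison of a group with the culture, rests on the labels as given. Depth was similar in all libraries, at 32513755 to 39062585 recovered reads. Summed microglia and macrophage markers (16 of 16 measured) ranged from 549 to 2259 CPM in the PDGF-B-labelled gliomas, from 8012 to 17930 CPM in the EGFRvIII-labelled gliomas, and stood at 22.5 CPM in the culture, where Trem2, C1qb, Mrc1 and Tyrobp were at 0. Summed oligodendrocyte precursor markers (10 of 10 measured) ranged from 8562 to 17200 CPM in the PDGF-B-labelled gliomas, from 6810 to 7490 CPM in the EGFRvIII-labelled gliomas, and stood at 2484 CPM in the culture. Endothelial markers (8 of 12 measured) summed to 4.95 to 20.3 CPM in the PDGF-B-labelled gliomas, 18.8 to 32.3 CPM in the EGFRvIII-labelled gliomas and 29.9 CPM in the culture, where Cdh5, Cldn5 and Tie1 were at 0. Mural and fibroblast markers (10 of 12 measured) summed to 10.2 to 22.7 CPM, 12.4 to 27.3 CPM and 16.0 CPM in the same order, with Kcnj8 and Vtn at 0 in the culture. The part of any of these cells in the values below was not tested, and in such bulk libraries fewer cells of a type and less RNA per cell cannot be told apart.

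Wnt proteins are secreted lipid-modified signals: Porcn attaches the lipid, Frizzled receptors and the co-receptors Lrp5 and Lrp6 receive the ligand, and in the canonical branch beta-catenin then accumulates and acts with Tcf and Lef factors on target genes. The signal is held in check outside the cell by Sfrp, Frzb and Dkk proteins, at the membrane by Rnf43, Znrf3 and Apcdd1, and inside by Axin and Nkd proteins, several of which are themselves targets of the pathway. In the developing brain Wnt signalling controls the proliferation of neural precursors and the timing of oligodendrocyte differentiation, and Wnt7a and Wnt7b also drive the growth of brain blood vessels.

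Between the glioma models, the only member to pass the test was a secreted antagonist. Sfrp2 was lower in the PDGF-B-labelled gliomas, and it was the only 1 of the 35 members called (limma, Benjamini-Hochberg adjusted p under 0.05 over all genes; 0 higher, 1 lower), where 3.35% of all genes were called, 0.717% higher and 2.63% lower. At an unadjusted p under 0.05 there were 9 members, 7 higher and 2 lower in the PDGF-B-labelled gliomas, against 16.7% of all genes. Of the 17422 genes, 1131 were higher and 1775 lower at that threshold. The 3 values of each group did not overlap in 9 members (22.9% of all genes). They were higher in the PDGF-B-labelled gliomas in Porcn, Fzd4, Fzd9, Dkk3, Apcdd1, Axin2 and Tcf7 (10.3% of all genes) and lower in Sfrp1 and Sfrp2 (12.6% of all genes). The median log2 fold change over the 35 members was 0.31, with 25 above 0 and 10 below, beside a median of 0.00 over all genes. Leaving out any glioma other than PDGF-B replicate 3 brought the count of called members to 0, and leaving out that one raised it to 4 (Fzd7, Fzd9, Porcn and Sfrp2). The calls over all genes moved the same way, to 0.023 to 0.121% in the former fits and 7.36% without PDGF-B replicate 3.

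**Figure D1:**
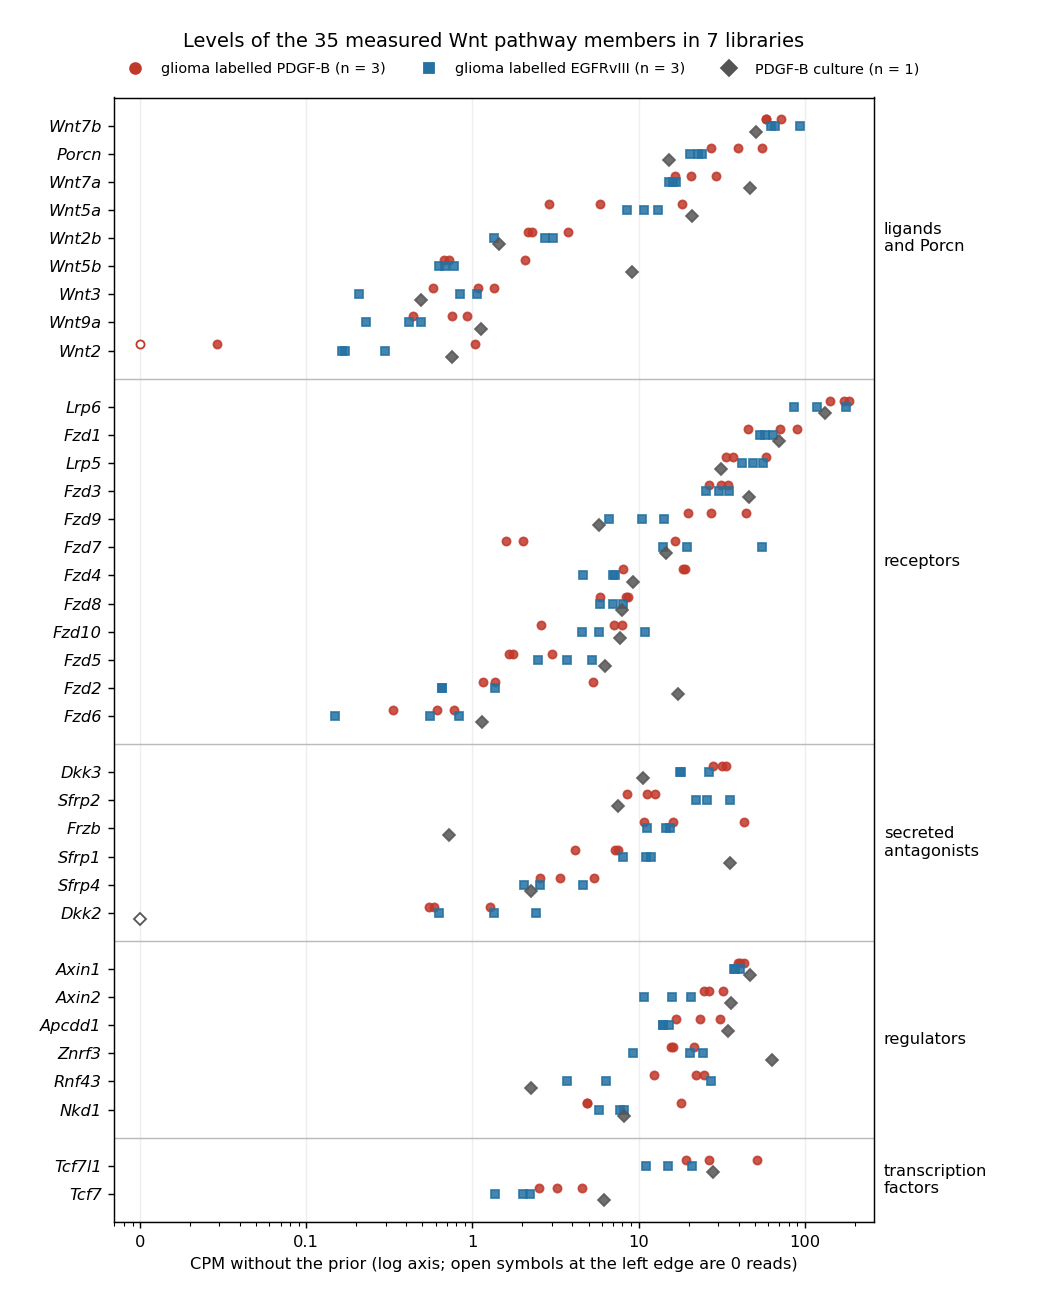
CPM of the 35 measured members on a log axis, by role, with 1 point per library for the PDGF-B-labelled gliomas, the EGFRvIII-labelled gliomas and the culture. Frzb and Dkk2 have their lowest point in the culture, and Wnt5b, Fzd2 and Sfrp1 their highest.

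Against the culture more members differed, and they differed in both directions. In the PDGF-B-labelled gliomas, Dkk2, Dkk3, Frzb and Fzd9 were higher and Sfrp1 and Wnt5b lower than in the culture, 6 of 35 members (9.45% of all genes called, 7.73% higher and 1.73% lower). In the EGFRvIII-labelled gliomas, Dkk2, Frzb and Sfrp2 were higher and Fzd2, Wnt5b and Wnt7a lower, also 6 of 35 (9.55% of all genes called, 8.20% higher and 1.34% lower). At an unadjusted p under 0.05 each comparison held 12 members, against 27.2% of all genes for the label PDGF-B and 23.9% for the label EGFRvIII. The median log2 fold change over the members was -0.11 in the PDGF-B-labelled gliomas and -0.25 in the EGFRvIII-labelled gliomas, beside 0.04 and 0.01 over all genes, and setting Dkk2, which had no read in the culture, at its lower bound leaves both medians as they are. Both comparisons use the same lone culture, without a replicate, whose spread is taken to be that of the gliomas, so their results are set side by side only. Per the labels, the EGFRvIII-labelled gliomas also differ from the culture in oncogene and Ink/Arf genotype, which cannot be told apart from grafting. Against the culture, Pdgfb had log2 fold changes of 0.35 (limma adjusted p = 0.716) in the EGFRvIII-labelled gliomas and -6.30 (0.00125) in the PDGF-B-labelled gliomas. Egfr had -3.21 (adjusted p = 0.00225) and 3.99 (0.00192) in that order. Which group shares its oncogene with the culture thus rests on the labels as given.

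The count in the PDGF-B-labelled gliomas came to 2 without PDGF-B replicate 1, PDGF-B replicate 2 or EGFRvIII replicate 3, and to 10 without PDGF-B replicate 3. Over all genes 4.9, 6.05, 6.24 and 13.2% were called in these fits, in that order. The count in the EGFRvIII-labelled gliomas came to 2 without EGFRvIII replicate 1 and 3 without EGFRvIII replicate 3, where 6.22 and 6.07% of all genes were called. Described without a test, all 6 gliomas lay above the culture in 9 members (27.8% of all genes): Porcn, Wnt7b, Fzd9, Lrp5, Dkk2, Dkk3, Frzb, Sfrp2 and Rnf43. They all lay below it in 14 members (24.0% of all genes): Wnt5a, Wnt5b, Wnt7a, Wnt9a, Fzd2, Fzd3, Fzd5, Fzd6, Sfrp1, Apcdd1, Axin1, Axin2, Znrf3 and Tcf7. The culture thus lay outside the range of the gliomas in 23 of 35 members, beside 51.9% of all genes.

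**Figure D2:**
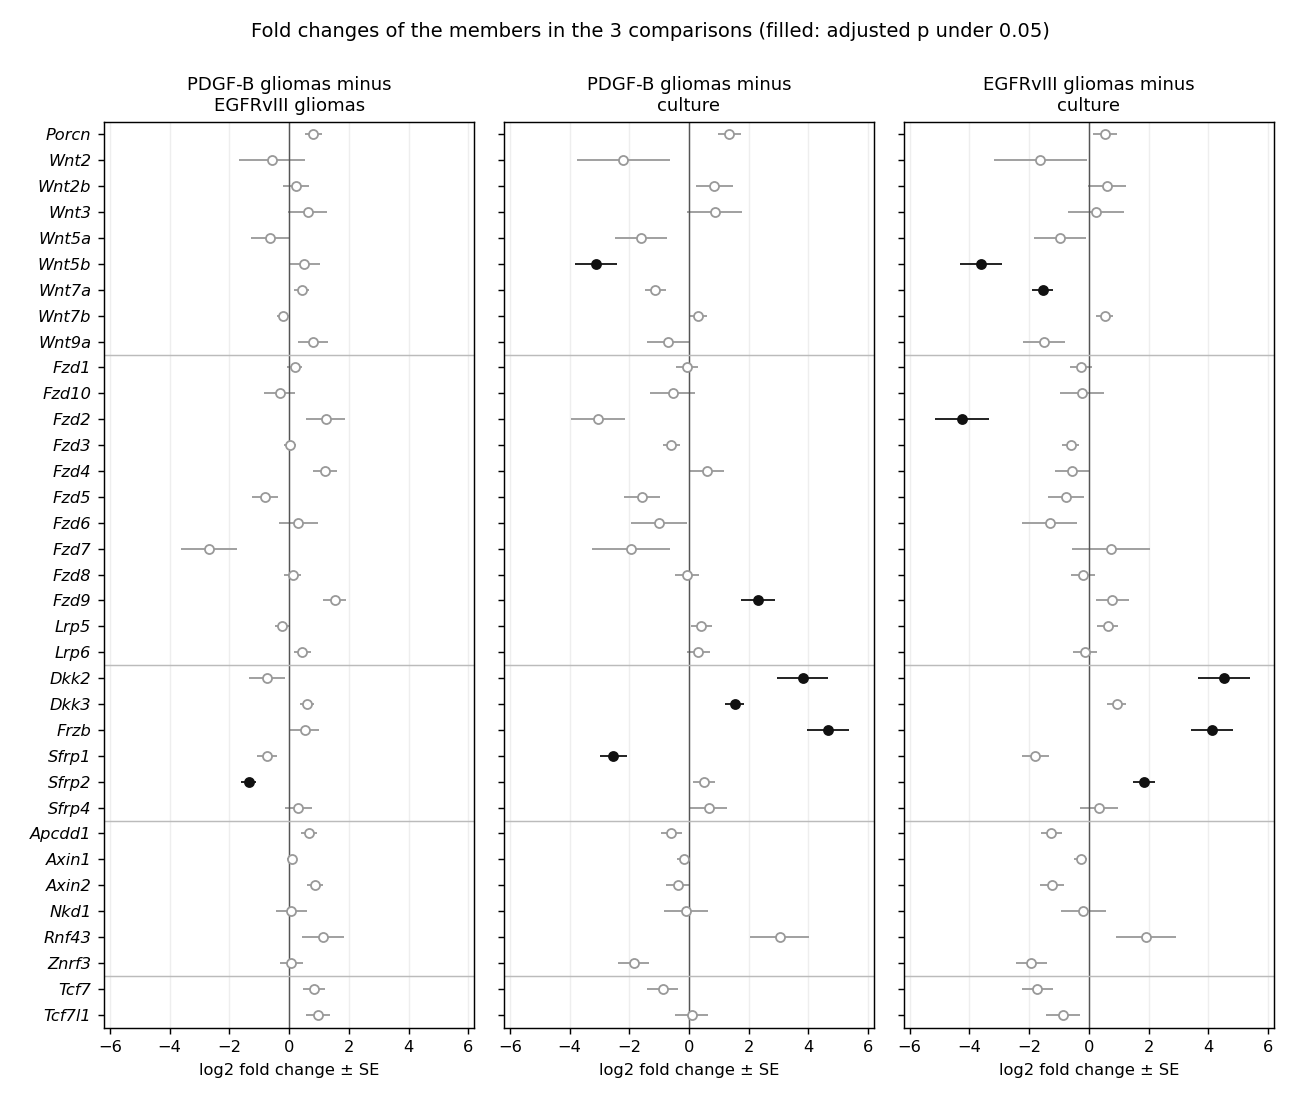
Log2 fold changes of the 35 members with their standard errors, by role, for the PDGF-B-labelled gliomas against the EGFRvIII-labelled gliomas, the PDGF-B-labelled gliomas against the culture, and the EGFRvIII-labelled gliomas against the culture; filled points passed an adjusted p of 0.05. Sfrp2 is filled in the comparison of the glioma groups, and Frzb has the largest filled fold change in the PDGF-B-labelled gliomas against the culture.

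Among the ligands, the gliomas carried mainly Wnt7b and Wnt7a, and the noncanonical ligand Wnt5b was low next to the culture. Wnt7b (ENSMUSG00000022382, chr15:85535437-85582473, minus strand, mm10) measured 58.4, 72.5 and 58.6 CPM across PDGF-B-labelled replicates 1 to 3, 66.0, 93.1 and 62.9 CPM across EGFRvIII-labelled replicates 1 to 3 and 50.6 CPM in the culture. All 6 gliomas lay above the culture, yet no comparison was called, with log2 fold changes of -0.21 (adjusted p = 0.626) between the glioma groups, 0.31 (adjusted p = 0.527) for the label PDGF-B against the culture and 0.52 (adjusted p = 0.336) for the label EGFRvIII against it. On 6.61% of its exon length Wnt7b overlaps the antisense gene AU022754, and the sources used here do not say whether counting used strand.

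Wnt7a (ENSMUSG00000030093, chr6:91363981-91411363, minus strand) was at 20.6, 29.3 and 16.6 CPM in the PDGF-B-labelled gliomas, compared with 16.0, 16.9 and 15.3 CPM in the EGFRvIII-labelled gliomas and 47.0 CPM in the culture. Here all 6 gliomas lay below the culture, and the EGFRvIII-labelled gliomas were close to one another. Wnt7a fell in the EGFRvIII-labelled gliomas, with a log2 fold change of -1.55 ± 0.35 (SE, adjusted p = 0.0334) against the culture. In the PDGF-B-labelled gliomas it was -1.12 ± 0.35 (SE, adjusted p = 0.0883), and between the glioma groups 0.42 ± 0.25 (SE, adjusted p = 0.44), so a difference between the models was not shown. The call was lost without PDGF-B replicate 1 or any 1 of the EGFRvIII-labelled gliomas, at adjusted p of 0.0527 to 0.0881, and without the intensity trend (adjusted p = 0.0558).

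Per kilobase of exon, Wnt7b made up 57.1, 57.8 and 54.5% of the summed ligand CPM in the PDGF-B-labelled gliomas, 62.9, 70.7 and 63.8% in the EGFRvIII-labelled gliomas and 31.9% in the culture. Wnt7a made up 31.0, 36.0 and 23.8% in the PDGF-B-labelled gliomas, 23.6, 19.8 and 23.9% in the EGFRvIII-labelled gliomas and 45.6% in the culture. Wnt7b was thus the first ligand on this scale in all 6 gliomas, and Wnt7a in the culture. The summed ligand level was 20.1 to 26.9 CPM per kilobase in the gliomas and 32.5 in the culture.

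**Figure D3:**
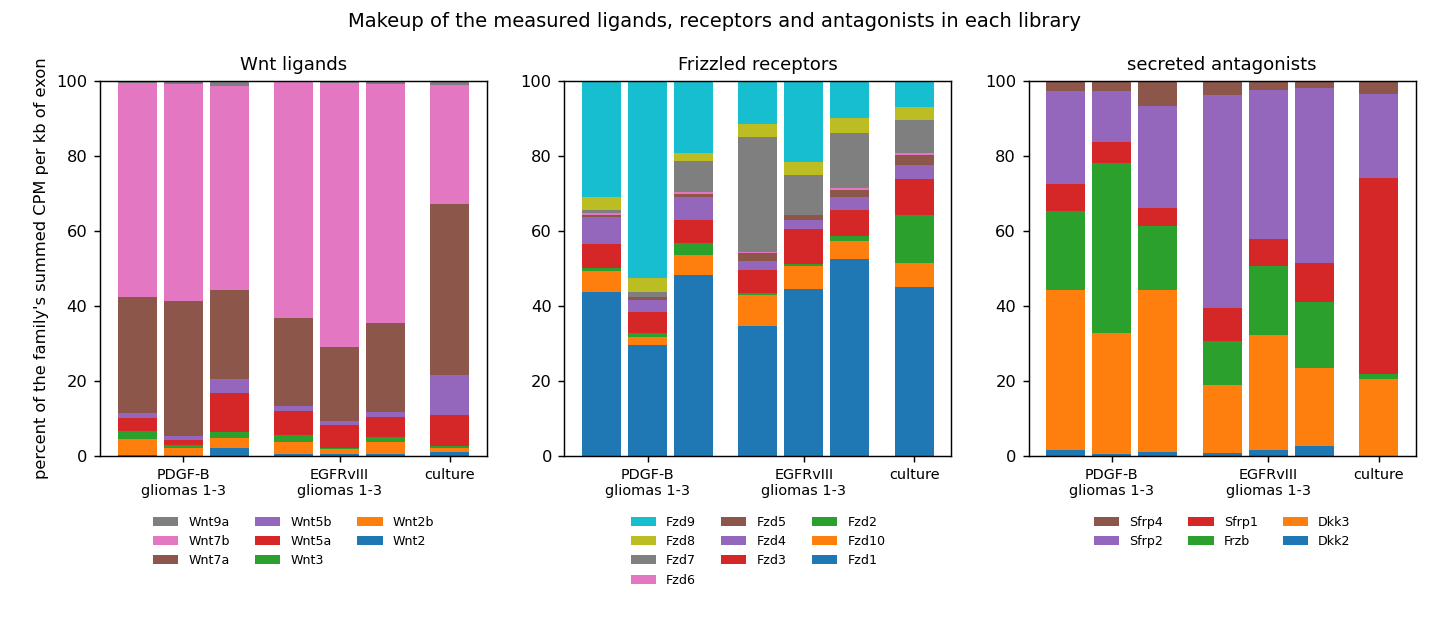
Share of each member in the summed CPM per kilobase of its family (Wnt ligands, Frizzled receptors, secreted antagonists), 1 bar per library, with the PDGF-B-labelled gliomas at the left, the EGFRvIII-labelled gliomas in the middle and the culture at the right. Wnt7b leads the ligands in the 6 gliomas and Wnt7a in the culture; Sfrp1 takes 4.88 to 10.5% of the antagonists in the gliomas and 52.2% in the culture.

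Wnt5b (ENSMUSG00000030170, chr6:119432531-119544347, minus strand) stood at 0.670, 0.727 and 2.07 CPM in the PDGF-B-labelled gliomas, 0.774, 0.688 and 0.627 CPM in the EGFRvIII-labelled gliomas and 9.18 CPM in the culture. The culture was higher than every glioma, with PDGF-B replicate 3 the nearest to it. Wnt5b fell in both groups, by a log2 fold change of -3.11 ± 0.71 (SE, adjusted p = 0.0375) in the PDGF-B-labelled gliomas and -3.62 ± 0.71 (SE, adjusted p = 0.0208) in the EGFRvIII-labelled gliomas. The first call was lost without PDGF-B replicate 1 or 2 or EGFRvIII replicate 1 or 3 (adjusted p of 0.065 to 0.1), and the second without EGFRvIII replicate 1 (0.0531) or 3 (0.062).

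Wnt5a, its close relative, had 5.85, 2.91 and 18.2 CPM in the PDGF-B-labelled gliomas, 10.8, 13.1 and 8.52 CPM in the EGFRvIII-labelled ones and 20.9 CPM in the culture. PDGF-B replicate 3 lay near the culture, and the other PDGF-B-labelled gliomas were the lowest of the 6. Without that replicate the log2 fold change of the PDGF-B-labelled gliomas against the culture was -2.32 (adjusted p = 0.0335), whereas with it the value was -1.62 (adjusted p = 0.273).

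Porcn, the acyltransferase that all Wnt ligands need, measured 39.8, 55.7 and 27.1 CPM across PDGF-B-labelled replicates 1 to 3, 22.8, 20.3 and 24.0 CPM across EGFRvIII-labelled replicates 1 to 3 and 15.3 CPM in the culture. Its glioma groups did not overlap and the culture was below both. The log2 fold change was 0.81 ± 0.28 (SE, adjusted p = 0.193) between the glioma groups and 1.35 ± 0.39 (SE, adjusted p = 0.0757) for the label PDGF-B against the culture, neither of them called. Without PDGF-B replicate 3 both passed, at 1.08 (adjusted p = 0.0437) and 1.62 (adjusted p = 0.0209).

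Wnt3, a canonical ligand, was at 1.34, 0.576 and 1.07 CPM in the PDGF-B-labelled gliomas, compared with 1.06, 0.209 and 0.845 CPM in the EGFRvIII-labelled gliomas and 0.492 CPM in the culture. Wnt9a stood at 0.437, 0.758 and 0.924 CPM in the PDGF-B-labelled gliomas, 0.229, 0.418 and 0.491 CPM in the EGFRvIII-labelled gliomas and 1.13 CPM in the culture. Both were near the low end of the measured range, their glioma groups overlapped, and neither was called in any comparison. Wnt2b stayed between 1.35 and 3.79 CPM in the 6 gliomas, with 1.45 CPM in the culture. Wnt2 reached 1.04 CPM in PDGF-B replicate 3, did not exceed 0.299 CPM in the other 5 gliomas, and stood at 0.753 CPM in the culture. Against the culture its log2 fold change in the PDGF-B-labelled gliomas was -2.20 (adjusted p = 0.394), and -3.52 (adjusted p = 0.0424) without replicate 3. No ligand was called between the glioma groups by limma, and 1 of the 9 had an unadjusted p under 0.05, beside 16.7% of all genes.

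Among the receptors, Fzd9 was higher than in the culture in the PDGF-B-labelled gliomas and Fzd2 lower than in it in the EGFRvIII-labelled gliomas, while none passed between the glioma groups. Fzd9 (ENSMUSG00000049551, chr5:135248938-135251230, minus strand) is a Frizzled of developing brain. It had 27.4, 44.4 and 19.8 CPM in the PDGF-B-labelled gliomas, 10.5, 14.3 and 6.62 CPM in the EGFRvIII-labelled ones and 5.76 CPM in the culture. Every PDGF-B value lay above every EGFRvIII value, and the culture was lowest. Fzd9 rose in the PDGF-B-labelled gliomas, with a log2 fold change of 2.31 ± 0.56 (SE, adjusted p = 0.0442) against the culture. The EGFRvIII-labelled gliomas had 0.79 ± 0.56 (SE, adjusted p = 0.448) against the culture, but the difference between the glioma groups, 1.52 ± 0.39 (SE, adjusted p = 0.0928), did not pass. Without PDGF-B replicate 3 that difference was 1.80 (adjusted p = 0.0449). The call against the culture was lost without PDGF-B replicate 1 or 2 or EGFRvIII replicate 1 or 3 (adjusted p of 0.0511 to 0.103), with log2(CPM + 1) values (0.0525) and without the intensity trend (0.0687).

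Fzd7 (ENSMUSG00000041075, chr1:59482424-59486955, plus strand), a receptor linked to stem and progenitor cells in several tissues, measured 1.60, 2.03 and 16.6 CPM across PDGF-B-labelled replicates 1 to 3, 55.7, 14.0 and 19.5 CPM across EGFRvIII-labelled replicates 1 to 3 and 14.7 CPM in the culture. Among the PDGF-B-labelled gliomas, replicate 3 lay within the range of the EGFRvIII-labelled gliomas, and replicates 1 and 2 lay below every other library. The log2 fold change between the glioma groups was -2.68 ± 0.93 (SE, adjusted p = 0.202). It was -3.74 (adjusted p = 0.0136) without PDGF-B replicate 3, so that this library decides the call.

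The RefSeq promoters (GRCm38.p6) of Fzd9 and Fzd7 are shown because these receptors had the largest log2 fold changes between the glioma groups among the receptors. Each is the 250 bases before the RefSeq start, 5′ to 3′ on the gene's strand. They lie at chr5:135251048-135251297 on the minus strand for Fzd9 and chr1:59481897-59482146 on the plus strand for Fzd7. The RefSeq start of Fzd9 lies inside its span given above, so most of this window, up to 135251230, falls within the annotated gene. That of Fzd7 lies before its span given above, which begins at 59482424, and distances printed for Fzd7 count from the RefSeq start. Capitals mark matches on either strand to the Tcf/Lef letters CTTTGAT, or CTTTGTT, or CTTTGAA, or CTTTGTA, the GC box GGGCGG, the CCAAT box CCAAT and the TATA box TATAAA.
Fzd9: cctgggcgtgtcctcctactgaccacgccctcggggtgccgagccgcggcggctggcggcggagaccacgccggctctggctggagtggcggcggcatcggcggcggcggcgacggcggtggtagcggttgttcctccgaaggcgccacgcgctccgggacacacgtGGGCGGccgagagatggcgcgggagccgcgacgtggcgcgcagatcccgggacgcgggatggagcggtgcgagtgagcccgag
Fzd7: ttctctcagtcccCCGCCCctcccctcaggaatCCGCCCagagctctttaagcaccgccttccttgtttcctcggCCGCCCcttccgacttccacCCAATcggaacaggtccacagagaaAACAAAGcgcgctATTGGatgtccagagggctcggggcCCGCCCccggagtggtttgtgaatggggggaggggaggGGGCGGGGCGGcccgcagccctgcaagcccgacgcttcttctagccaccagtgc
Fzd9 holds 1 GC box in a window of 76.4% G and C. Fzd7 holds 6 GC boxes, of which a pair overlap, 2 CCAAT boxes and 1 Tcf/Lef match, the AACAAAG that lies 130 bases before the start, in a window of 65.2% G and C. Of the 35 measured members 20 had a RefSeq window; of these, 2 had a Tcf/Lef match (Fzd7 and Wnt5b), 16 a GC box, 7 a CCAAT box and 3 a TATA box. Counted by window, 2, 18, 7 and 3 of the 24 windows of these members had a match, in that order. The same letters occurred in 14.8%, 32.7%, 33.8% and 12.4% of 32851 promoter windows. Such matches are descriptions of these letters only.

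Fzd2 (ENSMUSG00000050288, chr11:102604396-102608058, plus strand), a receptor of Wnt5a in other systems, was at 1.17, 1.36 and 5.32 CPM in the PDGF-B-labelled gliomas, compared with 0.660, 0.658 and 1.36 CPM in the EGFRvIII-labelled gliomas and 17.2 CPM in the culture. No glioma came near the culture, and PDGF-B replicate 3 was the highest of the 6. Fzd2 fell in the EGFRvIII-labelled gliomas, by a log2 fold change of -4.26 ± 0.90 (SE, adjusted p = 0.0278). In the PDGF-B-labelled gliomas it was -3.04 ± 0.90 (SE, adjusted p = 0.0811), and the groups were not shown to differ (1.23 ± 0.65, SE, adjusted p = 0.39). The call was lost without EGFRvIII replicate 1 (0.074) or 2 (0.0652), and the PDGF-B comparison passed without PDGF-B replicate 3 (-3.71, adjusted p = 0.0129).

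Fzd1 was the most abundant Frizzled in the culture per kilobase, and stood at 70.8, 45.7 and 90.4 CPM in the PDGF-B-labelled gliomas, 57.9, 54.0 and 64.4 CPM in the EGFRvIII-labelled gliomas and 69.8 CPM in the culture. Its groups overlapped, and the culture lay within the range of the gliomas. Of the summed Frizzled CPM per kilobase it held 43.6, 29.5 and 48.1% in the PDGF-B-labelled gliomas, 34.5, 44.4 and 52.6% in the EGFRvIII-labelled gliomas and 45.0% in the culture. Fzd9 held 30.8, 52.5 and 19.3% in the PDGF-B-labelled gliomas, 11.5, 21.6 and 9.89% in the EGFRvIII-labelled gliomas and 6.81% in the culture, so that in PDGF-B replicate 2 its share passed that of Fzd1. Fzd7 held 0.910, 1.21 and 8.20% in the PDGF-B-labelled gliomas, 30.7, 10.7 and 14.7% in the EGFRvIII-labelled gliomas and 8.79% in the culture.

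Fzd4, the receptor of Norrin in vessels, had 18.9, 8.03 and 18.6 CPM in the PDGF-B-labelled gliomas, 7.05, 4.60 and 7.25 CPM in the EGFRvIII-labelled ones and 9.22 CPM in the culture. The glioma groups did not overlap, although the log2 fold change of 1.19 ± 0.40 (SE, adjusted p = 0.193) was not called. Fzd3, which guides axons through the planar polarity branch, measured 31.3, 26.7 and 34.4 CPM across PDGF-B-labelled replicates 1 to 3, 30.7, 34.97 and 25.6 CPM across EGFRvIII-labelled replicates 1 to 3 and 46.0 CPM in the culture, which was above all 6. Fzd10 was at 7.13, 2.58 and 7.94 CPM in the PDGF-B-labelled gliomas, compared with 11.001, 5.76 and 4.54 CPM in the EGFRvIII-labelled gliomas and 7.73 CPM in the culture, with wide overlap. Fzd5, Fzd6 and Fzd8 stayed under 10 CPM in all libraries, at 1.66 to 5.27, 0.149 to 0.832 and 5.85 to 8.64 CPM in the gliomas against 6.25, 1.14 and 7.93 CPM in the culture; an unstranded count of Fzd5 could include the opposite-strand Gm38058, which covers 17.8% of its exon length.

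The co-receptor Lrp6 stood at 185, 174 and 142 CPM in the PDGF-B-labelled gliomas, 178, 86.4 and 118 CPM in the EGFRvIII-labelled gliomas and 133 CPM in the culture. Lrp5, the other co-receptor, had 33.8, 58.1 and 36.9 CPM in the PDGF-B-labelled gliomas, 56.3, 42.1 and 48.8 CPM in the EGFRvIII-labelled ones and 31.4 CPM in the culture. Groups overlapped for both co-receptors, and no comparison was called. No receptor was called between the glioma groups by limma, and 3 of the 12 had an unadjusted p under 0.05, beside 16.7% of all genes.

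Of the 6 secreted antagonists measured, 4 were called in the PDGF-B-labelled gliomas against the culture (3 higher, 1 lower), 3 in the EGFRvIII-labelled gliomas (all higher) and 1 between the glioma groups; over all genes 9.45%, 9.55% and 3.35% were called in these comparisons. Their makeup differed from the culture: Sfrp1 held 4.88 to 10.5% of their summed CPM per kilobase in the gliomas and 52.2% in the culture, whereas Frzb held 11.9 to 45.5% in the gliomas, compared with 1.44% in the culture. The summed level was 19.3 to 29.3 CPM per kilobase in the gliomas and 15.6 in the culture.

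Sfrp2 (ENSMUSG00000027996, chr3:83766321-83774316, plus strand), a secreted protein with a Frizzled-like domain that binds Wnt ligands, measured 12.5, 8.52 and 11.3 CPM across PDGF-B-labelled replicates 1 to 3, 35.5, 22.2 and 25.8 CPM across EGFRvIII-labelled replicates 1 to 3 and 7.53 CPM in the culture. All 3 EGFRvIII-labelled gliomas lay above all 3 PDGF-B-labelled gliomas, and the culture was the lowest library. The means were 10.8 ± 2.04 CPM in the PDGF-B-labelled gliomas and 27.8 ± 6.90 CPM in the EGFRvIII-labelled gliomas (SD, n = 3 each), and Sfrp2 fell by 1.36 ± 0.26 on the log2 scale in the PDGF-B-labelled gliomas (SE, limma adjusted p = 0.041). Against the culture it rose in the EGFRvIII-labelled gliomas (1.85 ± 0.38, SE, adjusted p = 0.0236), with 0.49 ± 0.38 (SE, adjusted p = 0.428) in the PDGF-B-labelled gliomas.

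The call between the glioma groups was lost in 5 of the 6 fits without 1 glioma, the one that kept it being without PDGF-B replicate 3; log2 fold changes ran over -1.51 to -1.17 and adjusted p over 0.0446 to 0.132 in the 6 fits. It was also lost with scaling by library totals (-1.26, adjusted p = 0.079) and without the intensity trend (adjusted p = 0.066). The call of Sfrp2 against the culture was lost without EGFRvIII replicate 1 (0.0579) or 3 (0.0648). Summed microglia and macrophage markers were also lower in all 3 PDGF-B-labelled gliomas than in the 3 EGFRvIII-labelled ones, with values given above. Among the EGFRvIII-labelled gliomas, replicate 2 had the highest of these sums, 17930 CPM, and the lowest Sfrp2. The part of these cells in the Sfrp2 values was not tested. An antisense gene, Gm26771, covers 16.1% of the exon length of Sfrp2, and reads of the pair cannot be told apart if strand was not used.

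Frzb (ENSMUSG00000027004, chr2:80411970-80447625, minus strand), also called Sfrp3, was at 16.0, 43.2 and 10.8 CPM in the PDGF-B-labelled gliomas, compared with 11.2, 15.4 and 14.6 CPM in the EGFRvIII-labelled gliomas and 0.724 CPM in the culture, where it had 25 reads. Every glioma was more than 10 CPM and the culture under 1 CPM. Frzb rose by a log2 fold change of 4.65 ± 0.70 (SE, adjusted p = 0.00895) in the PDGF-B-labelled gliomas and 4.13 ± 0.70 (SE, adjusted p = 0.0116) in the EGFRvIII-labelled gliomas. Both calls held in each fit without 1 glioma and under every other scaling and pseudocount tried. Between the glioma groups, which overlapped, the value was 0.52 ± 0.49 (SE, adjusted p = 0.612). Oligodendrocyte precursor markers were higher in all 6 gliomas than in the culture as well, with the sums given above, and their part in the Frzb values was not tested.

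The promoters of Sfrp2 and Frzb are printed because these genes carry the 1 call between the glioma groups and the most stable calls against the culture. They are the 250 bases before the RefSeq start (GRCm38.p6), 5′ to 3′ on the gene's strand, with the same capitals as above. They lie at chr3:83766071-83766320 on the plus strand for Sfrp2 and chr2:80447397-80447646 on the minus strand for Frzb. The RefSeq start of Frzb lies inside its span given above, so most of this window, up to 80447625, falls within the annotated gene.
Sfrp2: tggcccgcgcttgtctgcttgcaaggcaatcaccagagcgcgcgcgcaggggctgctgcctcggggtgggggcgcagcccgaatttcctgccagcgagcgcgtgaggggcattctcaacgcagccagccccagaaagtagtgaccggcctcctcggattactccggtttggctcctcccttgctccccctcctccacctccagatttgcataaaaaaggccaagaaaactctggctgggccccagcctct
Frzb: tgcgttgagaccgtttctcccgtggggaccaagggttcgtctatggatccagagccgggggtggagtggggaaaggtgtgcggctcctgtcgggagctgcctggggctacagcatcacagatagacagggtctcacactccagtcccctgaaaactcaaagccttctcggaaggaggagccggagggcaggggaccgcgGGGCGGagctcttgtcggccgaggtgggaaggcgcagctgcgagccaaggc
Sfrp2 has none of the searched letters in a window of 63.6% G and C, and Frzb has 1 GC box in a window of 64.4%.

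Sfrp1 (ENSMUSG00000031548, chr8:23411502-23449632, plus strand), a relative of Sfrp2, went the other way from Frzb. It stood at 7.48, 7.26 and 4.13 CPM in the PDGF-B-labelled gliomas, 11.1, 8.10 and 11.8 CPM in the EGFRvIII-labelled gliomas and 35.5 CPM in the culture. The culture was well above every glioma, and the PDGF-B-labelled gliomas were all below the EGFRvIII-labelled ones. Sfrp1 fell in the PDGF-B-labelled gliomas, by a log2 fold change of -2.54 ± 0.45 (SE, adjusted p = 0.0165), a call held in each fit without 1 glioma. In the EGFRvIII-labelled gliomas the value was -1.79 ± 0.45 (SE, adjusted p = 0.0515), just outside the threshold, and it passed without PDGF-B replicate 3 (0.0231), with log2(CPM + 1) values (0.0449) and with median-of-ratios scaling (0.0499). The glioma groups were not shown to differ (-0.74 ± 0.33, SE, adjusted p = 0.317).

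**Figure D4:**
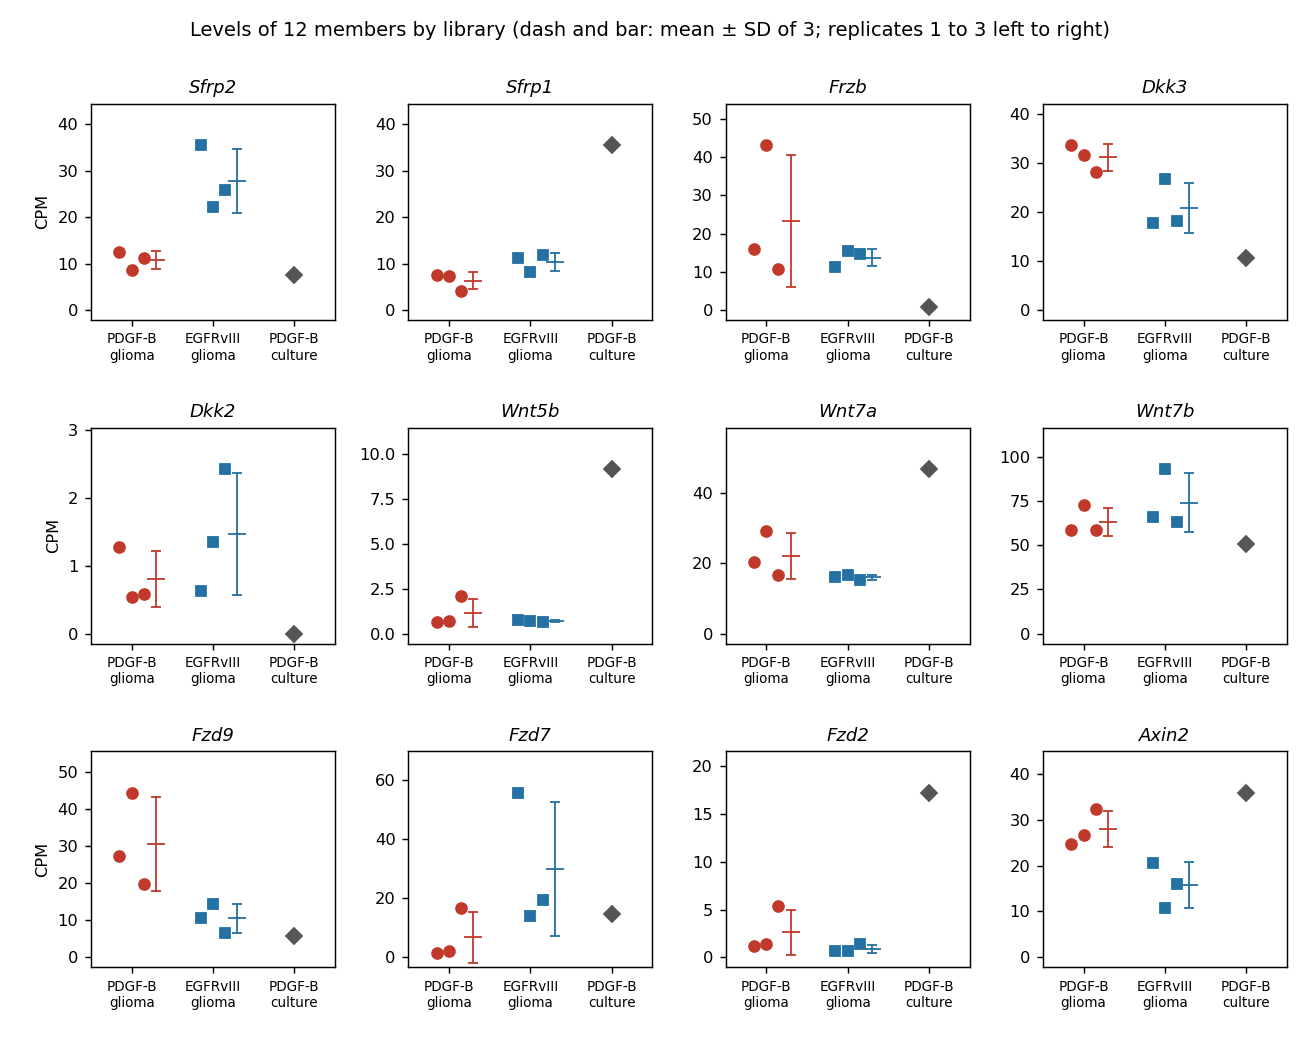
CPM per library of Sfrp2, Sfrp1, Frzb, Dkk3, Dkk2, Wnt5b, Wnt7a, Wnt7b, Fzd9, Fzd7, Fzd2 and Axin2, each in a panel with its own linear axis; points are libraries, dashes and bars the mean and SD of the 3 gliomas of a group, and the culture is a single point. The 3 Sfrp2 values labelled PDGF-B lie between 8.52 and 12.5 CPM, below the 22.2 to 35.5 CPM of the EGFRvIII-labelled gliomas.

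Dkk proteins form a second family of antagonists, most of which act on Lrp5 and Lrp6. Dkk3 (ENSMUSG00000030772, chr7:112116017-112159057, minus strand), a divergent member, had 33.6, 31.6 and 28.1 CPM in the PDGF-B-labelled gliomas, 17.7, 26.7 and 18.1 CPM in the EGFRvIII-labelled ones and 10.7 CPM in the culture. The 3 groups stood in that order with no overlap. Dkk3 rose in the PDGF-B-labelled gliomas against the culture (1.53 ± 0.32, SE, adjusted p = 0.0273), while the EGFRvIII-labelled gliomas had 0.93 ± 0.32 (SE, adjusted p = 0.124) and the difference between the glioma groups, 0.60 ± 0.22 (SE, adjusted p = 0.23), did not pass. The call was lost without PDGF-B replicate 1 (0.092) or 2 (0.0687) or EGFRvIII replicate 3 (0.0504).

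Dkk2 (ENSMUSG00000028031, chr3:132085292-132180304, plus strand) had 44, 18 and 21 reads in the PDGF-B-labelled gliomas, 22, 45 and 89 reads in the EGFRvIII-labelled gliomas and 0 in the culture. In CPM these were 1.28, 0.545 and 0.588 for the label PDGF-B and 0.631, 1.34 and 2.43 for the label EGFRvIII. It was low everywhere, and listed in every glioma. Set against the 3 reads that a count of 0 allows in the culture library (0.0868 CPM, counting error only), Dkk2 was at least 9.28-fold higher in the PDGF-B-labelled gliomas and at least 16.9-fold higher in the EGFRvIII-labelled gliomas. The limma adjusted p was 0.0373 and 0.0189 for the 2 groups in that order. With log2(CPM + 1) values these became 0.265 and 0.137, and with log2(CPM + 0.25) values 0.124 and 0.0627. The first call was also lost without PDGF-B replicate 1 (0.1) or 2 (0.0655) or EGFRvIII replicate 2 (0.0516) or 3 (0.0505). Sfrp4, the remaining antagonist, ranged from 2.04 to 5.37 CPM in the gliomas, with 2.26 CPM in the culture, and was not called.

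Among the regulators, which include the feedback targets of the pathway, none of the 6 was called in any comparison (limma), with 2, 2 and 3 at an unadjusted p under 0.05 for the glioma groups, the label PDGF-B against the culture and the label EGFRvIII against the culture, beside 16.7%, 27.2% and 23.9% of all genes. All 6 had a log2 fold change above 0 between the glioma groups, as did 8707 of the 17422 genes. Axin1, Nkd1 and Znrf3 were near 0, at 0.09, 0.08 and 0.07. Of 10 known Wnt targets outside the members, 2 were above 0 and 8 below, with a median of -0.56. Axin2 (ENSMUSG00000000142, chr11:108920349-108950783, plus strand), a scaffold of the beta-catenin destruction complex and a widely used target of canonical Wnt signalling, measured 24.8, 26.6 and 32.3 CPM across PDGF-B-labelled replicates 1 to 3, 20.6, 10.8 and 15.9 CPM across EGFRvIII-labelled replicates 1 to 3 and 35.9 CPM in the culture. The glioma groups did not overlap and the culture was highest. The log2 fold change was 0.86 ± 0.28 (SE, adjusted p = 0.172) between the glioma groups and -1.23 ± 0.39 (SE, adjusted p = 0.0995) for the label EGFRvIII against the culture.

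Apcdd1, a membrane protein that binds Wnt and Lrp proteins and is itself a target, was at 23.5, 30.7 and 16.7 CPM in the PDGF-B-labelled gliomas, compared with 15.3, 14.0 and 14.1 CPM in the EGFRvIII-labelled gliomas and 34.5 CPM in the culture. It had the same order as Axin2, with values of 0.66 ± 0.26 (SE, adjusted p = 0.257) between the glioma groups and -1.25 ± 0.36 (SE, adjusted p = 0.078) for the label EGFRvIII against the culture. Without PDGF-B replicate 3 the comparison with the culture passed (-1.25, adjusted p = 0.0387). Axin1, the constitutive scaffold, varied little, at 40.0, 43.2 and 40.9 CPM in the PDGF-B-labelled gliomas, 40.8, 37.5 and 38.3 CPM in the EGFRvIII-labelled gliomas and 46.8 CPM in the culture.

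Rnf43 and Znrf3 are related ubiquitin ligases that remove Frizzled receptors from the membrane. Znrf3 stood at 16.1, 15.8 and 21.5 CPM in the PDGF-B-labelled gliomas, 20.5, 9.33 and 24.3 CPM in the EGFRvIII-labelled gliomas and 63.8 CPM in the culture. Rnf43 had 22.3, 12.3 and 24.8 CPM in the PDGF-B-labelled gliomas, 27.4, 6.40 and 3.71 CPM in the EGFRvIII-labelled ones and 2.26 CPM in the culture. The pair thus lay on opposite sides of the culture, Znrf3 below it and Rnf43 above it in all 6 gliomas. For Znrf3 the log2 fold change was -1.86 ± 0.53 (SE, adjusted p = 0.0714) in the PDGF-B-labelled gliomas and -1.93 ± 0.53 (SE, adjusted p = 0.0664) in the EGFRvIII-labelled gliomas, and both passed without EGFRvIII replicate 2 (adjusted p of 0.0159 and 0.03). For Rnf43 it was 3.04 ± 1.00 (SE, adjusted p = 0.104) and 1.92 ± 1.00 (SE, adjusted p = 0.298) in the same order, and the first passed without EGFRvIII replicate 1 (0.0299).

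Nkd1, an inhibitor of Dishevelled, measured 4.89, 4.91 and 18.0 CPM across PDGF-B-labelled replicates 1 to 3, 5.82, 7.68 and 8.23 CPM across EGFRvIII-labelled replicates 1 to 3 and 8.14 CPM in the culture. PDGF-B replicate 3 was the highest library, and the other PDGF-B-labelled gliomas were the lowest.

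Of the transcription factors, Tcf7 and Tcf7l1 were measured, and neither was called in any comparison (limma). At an unadjusted p under 0.05 there were 1, 0 and 1 of the pair, beside 16.7%, 27.2% and 23.9% of all genes. Tcf7l1, which acts mainly as a repressor of Wnt targets, was at 26.6, 51.4 and 19.3 CPM in the PDGF-B-labelled gliomas, compared with 11.1, 21.1 and 15.1 CPM in the EGFRvIII-labelled gliomas and 28.01 CPM in the culture. Its groups overlapped, with 0.96 ± 0.40 (SE, adjusted p = 0.291) between them. Tcf7, whose long form carries beta-catenin to its targets, ranged from 2.51 to 4.57 CPM in the PDGF-B-labelled gliomas and from 1.38 to 2.24 CPM in the EGFRvIII-labelled gliomas, with 6.19 CPM in the culture. These glioma groups did not overlap, and the log2 fold change was 0.83 ± 0.38 (SE, adjusted p = 0.328).

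PDGF-B replicate 3 departed from the other gliomas of its label in several members. It was the highest of the 3 in 17 members, the lowest in 10 and the middle one in 8. These places were not counted over all genes. Its Fzd7, Nkd1, Wnt5a, Fzd2, Wnt5b and Wnt2 were each higher than in replicates 1 and 2, and its Frzb, Porcn, Fzd9 and Tcf7l1 each lower. In Frzb, Fzd9 and Tcf7l1, however, replicate 2 stood further from replicate 1 than replicate 3 did. The microglia and macrophage markers of replicate 3 summed to 2259 CPM, against 549 and 742 CPM in replicates 1 and 2. Its oligodendrocyte precursor markers summed to 8562 CPM, the lowest of the 3. Their part in the values of this library was not tested.

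Outside the members, 66 of 78 further pathway genes were measured. Between the glioma groups 1 of these was called, Ccn4, lower in the PDGF-B-labelled gliomas. Against the culture, 8 were called in the PDGF-B-labelled gliomas (3 higher, 5 lower) and 9 in the EGFRvIII-labelled gliomas (4 higher, 5 lower). These are 1.52%, 12.1% and 13.6% of the 66, near the 3.35%, 9.45% and 9.55% called over all genes. Ccn4, a secreted matrix protein and Wnt target, stood at 0.233, 0.212 and 0.168 CPM in the PDGF-B-labelled gliomas, at 0.892, 2.66 and 1.39 CPM in the EGFRvIII-labelled gliomas and at 0.0290 CPM, 1 read, in the culture. The log2 fold change between the glioma groups was -2.57 ± 0.51 (SE, adjusted p = 0.0441), a call lost without any 1 of the 6 gliomas (-2.93 to -2.17, adjusted p of 0.0558 to 0.146). The EGFRvIII-labelled gliomas also passed against the culture (adjusted p = 0.0153), a call kept in all 6 such fits; with 1 read in the culture no fold is given.

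In the planar polarity branch, Celsr1, a cadherin that orients cells, stood at 0.379, 0.424 and 0.868 CPM in the PDGF-B-labelled gliomas, 0.229, 0.179 and 0.600 CPM in the EGFRvIII-labelled gliomas and 16.3 CPM in the culture. It fell in both groups, with log2 fold changes of -4.82 (adjusted p = 0.0123) and -5.52 (adjusted p = 0.00571) in that order. Prickle2, of the same branch, rose in both, at 90.5, 74.7 and 48.8 CPM in the PDGF-B-labelled gliomas and 48.7, 39.3 and 44.4 CPM in the EGFRvIII-labelled gliomas, against 15.6 CPM in the culture. Its log2 fold changes were 2.15 (adjusted p = 0.0126) and 1.49 (adjusted p = 0.0422). Draxin, a secreted antagonist and axon guidance cue, fell in both (-3.91, adjusted p = 0.0314, and -4.29, adjusted p = 0.021), and so did Gpc4, a glypican of the cell surface (-3.84, adjusted p = 0.032, and -4.43, adjusted p = 0.0182). Hbp1, a repressor of Tcf activity, rose in both (1.00, adjusted p = 0.0315, and 1.04, adjusted p = 0.0252).

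Lgr5, a receptor of R-spondins, had 24.2, 19.6 and 30.6 CPM in the PDGF-B-labelled gliomas, 33.5, 10.4 and 16.6 CPM in the EGFRvIII-labelled ones and 3.42 CPM in the culture. It rose in the PDGF-B-labelled gliomas (2.82, adjusted p = 0.0303), with 2.38 (adjusted p = 0.0522) in the EGFRvIII-labelled gliomas. The R-spondin Rspo1 had 0.612, 0.667 and 0.392 CPM in the PDGF-B-labelled gliomas, 1.15, 1.64 and 0.872 CPM in the EGFRvIII-labelled ones and 3 reads in the culture, and rose in the EGFRvIII-labelled gliomas (adjusted p = 0.0255), with an adjusted p of 0.0916 for the label PDGF-B. Also lower than the culture were Sox9, a transcription factor of neural stem cells, and the corepressor Tle1 in the PDGF-B-labelled gliomas (-3.47, adjusted p = 0.0203, and -1.13, adjusted p = 0.0447), and the receptor kinase Ror1 and the corepressor Tle4 in the EGFRvIII-labelled gliomas (-3.54, adjusted p = 0.041, and -1.24, adjusted p = 0.0421). Without 1 glioma in turn, the calls kept in all 6 fits were those of Celsr1 and Prickle2 for the label PDGF-B, and of Ccn4, Celsr1 and Gpc4 for the label EGFRvIII. The other calls of these further genes against the culture were each lost in at least 1 such fit, with the highest adjusted p at 0.125 for Tle1 in the PDGF-B-labelled gliomas and 0.102 for Prickle2 and Ror1 in the EGFRvIII-labelled gliomas. Ctnnb1, the gene of beta-catenin, was not called in any comparison, at 804, 756 and 677 CPM in the PDGF-B-labelled gliomas, 773, 938 and 734 CPM in the EGFRvIII-labelled gliomas and 599 CPM in the culture. Nor was the cell cycle gene and target Ccnd1, at 1368, 1070 and 1608 CPM in the PDGF-B-labelled gliomas, 1330, 1683 and 1590 CPM in the EGFRvIII-labelled gliomas and 1195 CPM in the culture.

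Adgra2 and Reck, the co-receptors specific for Wnt7a and Wnt7b, were picked out after their values were seen. Adgra2 measured 12.6, 17.0 and 10.7 CPM across PDGF-B-labelled replicates 1 to 3, 6.25, 3.32 and 6.43 CPM across EGFRvIII-labelled replicates 1 to 3 and 5.91 CPM in the culture, with no overlap between the glioma groups and a log2 fold change of 1.35 ± 0.35 (SE, adjusted p = 0.095). Reck was at 22.1, 24.0 and 18.7 CPM in the PDGF-B-labelled gliomas, compared with 18.2, 5.95 and 18.1 CPM in the EGFRvIII-labelled gliomas and 12.2 CPM in the culture, with 0.78 ± 0.44 (SE, adjusted p = 0.421) between the glioma groups. Neither difference was called. Of the 8 co-receptors measured, 6 had a log2 fold change above 0 between the glioma groups and 2 below. Those below were Ror2 (-0.88 ± 0.34, SE, limma adjusted p = 0.25) and Kremen1 (-0.43 ± 0.24, SE, limma adjusted p = 0.406). The glioma groups did not overlap in 4 of the 8, 3 higher and 1 lower (Ror2), beside 22.9% of all genes.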

How the data were processed

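RNA of 7 libraries was sequenced on a BGISEQ-500; the protocol in the labels names both poly(A) selection and rRNA depletion. The authors deposited log2 CPM per gene (6 file headers say so; in the other file, EGFRvIII replicate 3, the unit is unnamed, but floor and genes are shared). STAR, edgeR and the mm10 build are named in the submitters' processing notes, without versions; the sources used here do not give the quantifier, scaling or gene filter. CPM printed here are the deposited values with the prior removed, and reads were recovered from their steps: all 300 lowest values checked per library were multiples of 0.01 read, within 0.1 of that step. Symbols came from GENCODE M21 (GRCm38), with 17254 of 17422 IDs matched.

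Deposited log2 values were fitted as they stand with limma 3.58.1 in R 4.3.3 (intensity trend, robust empirical Bayes) over all 17422 genes, with Benjamini-Hochberg adjustment and calls at an adjusted p under 0.05. The glioma groups were compared over 6 libraries, and the culture comparisons came from a fit of all 7 in 3 groups, each with 4 residual degrees of freedom. Fold changes on this scale understate those of genes with few reads. The fit was tested on simulated data. The series calls the gliomas of a model independent tumours. Floors and depth cover counting error only, whereas the SE and SD printed reflect the spread between gliomas.

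Members called in any comparison, reaching 10 CPM in a group, or marking the group are named with their values; other pathway genes are named where called. The members and lists were chosen with earlier results of these data known, and the GC, CCAAT and TATA letters after the Tcf/Lef letters. Alternatives were other scalings, pseudocounts, a 1 CPM minimum, no trend, a replicate block, other thresholds and leaving out each glioma.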

Additional observations from a re-analysis of the deposited data

Results flagged for a closer look

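Sfrp2 is listed because its difference from the culture was not the same in the glioma models: the log2 fold change was 0.49 in the PDGF-B-labelled gliomas and 1.85 in the EGFRvIII-labelled gliomas, and the difference of the effects, which equals the contrast of the glioma groups, was -1.36 (limma adjusted p = 0.041). Only groups of 4 or more libraries can be examined for a single library far from the others, and no group here has that many.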

How the results depend on the processing

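Between the glioma groups, 1 member was called. The count was 0 with library totals, without trend and robust moderation, with the replicate block and at an adjusted p of 0.01, with 9 members at an unadjusted p under 0.05 in each of these limma fits. At an adjusted p of 0.1 it was 2, and leaving out 1 glioma gave 0 to 4. Over all genes the calls were 583 in the reported fit, 224 without trend, 18 with the block, 7 and 1081 at the other thresholds, and 4 to 1282 without 1 glioma. Libraries that share a number do not deviate together (correlations of 0.175, -0.036 and -0.08), so they share only a number; with the block Sfrp2 had -1.36 (adjusted p = 0.0654).

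For the PDGF-B-labelled gliomas against the culture, 6 members were called, 1 at an adjusted p of 0.01, 10 at 0.1, and 2 to 10 without 1 glioma. Over all genes the shares were 9.45, 2.91, 16.5 and 4.9 to 13.2% in that order. For the EGFRvIII-labelled gliomas against the culture, 6 members were called, 0 at 0.01 (12 at an unadjusted p under 0.05), 11 at 0.1, and 2 to 8 without 1 glioma. Here the shares of all genes called were 9.55, 4.04, 14.5 and 6.07 to 11.7%. Other scalings and pseudocounts gave 4 to 6 and 5 to 7 members. For 35 single fold changes the alternatives gave 426 values, of which 372 were on the same side of the threshold, 40 lost a call, 14 gained one and 0 changed direction. Library totals moved the median of all genes to 0.16 for the label PDGF-B against the culture. With a 1 CPM minimum 30 members were tested, without Dkk2. No block was possible for the lone culture. Members under 1 CPM rest on few reads, and 3 gliomas a group limit every comparison.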
